A study of Mus musculus with 6 samples.

Results

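The annexin genes Anxa1, Anxa2, Anxa3, Anxa4, Anxa5, Anxa6, Anxa7 and Anxa11 were followed in a mouse myeloid progenitor line that had received IRF8 or KLF4, 2 transcription factors of the monocyte lineage. A probe counted as a member when the RefSeq accession in its array annotation belonged to one of these genes. This gave 11 probes for 8 of the 20259 genes that could be matched on the array, with 2 probes each for Anxa1, Anxa7 and Anxa11. All 8 genes were well above background on all 6 arrays, so the filter on dim probes removed none of them.

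All cells were Tot2, a single line that came from an Irf8 knockout mouse, so all groups share that loss of the endogenous gene. The groups differed in the retrovirus they received: the empty MSCV-puro vector as control, MSCV-IRF8FLAG, or MSCV-KLF4FLAG, which carry tagged versions of the factors. Every culture received GM-CSF, a growth factor of myeloid cells, at 5 ng/ml, was put under 2 µg/ml puromycin from 48 hr and was harvested on day 4. Each group was measured on 2 one-colour arrays, 1 from each of 2 experiments, and untransduced cells were not analysed here. Levels are given as log2 of the processed spot intensity relative to the 75th percentile of the same array, so that 1 unit is a 2-fold step. They are not comparable between probes or genes. Differences were tested with limma over 13244 genes, and a gene counted as changed at a Benjamini-Hochberg adjusted p under 0.05. The p-values measure the spread between these arrays, which may be in part technical.

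On each array 47.1% to 56.8% of probes stood well above background, and no spot was saturated. The Klf4 probe read -1.37 and -1.02 on the control arrays, -1.28 and -1.01 on those labelled KLF4, and 4.73 and 4.89 on those labelled IRF8. The Irf8 probe read 0.75 and 0.90 in control, 2.46 and 2.47 in the cells labelled KLF4, and 3.21 and 3.33 in those labelled IRF8. Where these probes lie in the transcripts is not known here, so neither is shown to detect the transduced or the deleted sequence. The Klf4 values did not check the KLF4 label, so each transduced group is named here by its label only, as IRF8-labelled or KLF4-labelled. Among progenitor markers, Mpo, Elane, Prtn3 and Ctsg were well above background on all arrays and Kit on none.

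Annexins are cytosolic proteins that bind acidic phospholipids, above all phosphatidylserine, when calcium rises. They share a conserved core of repeats that carries the membrane-binding face and differ in the N-terminal tail, through which several bind S100 proteins. In myeloid cells annexins are known for roles in granule traffic, membrane repair, plasminogen binding and the resolution of inflammation.

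The bases before the transcription start are shown for 3 members whose signal was higher in both labelled groups, Anxa1, Anxa2 and Anxa5, and for Anxa11, which did not pass the test in any comparison. The sequences are from RefSeq (GRCm38.p6), and that table held 6 of the 8 genes, in 8 start windows. They were read for the core of the interferon-stimulated response element (GAAA, any 2 bases, GAAA), for an ETS-IRF composite element (GGAA, any 2 bases, GAAA), and for GGGNGTGG, a KLF4 element, on both strands of the 250 bases before each start of the table. The table's start of Anxa11 lies 28 bases inside the annotated gene, so its printed run stops at the gene's edge and has 222 bases. Each is written 5′ to 3′ on its gene's strand, and capitals mark a match.
Anxa1, chr19:20390672-20390921, - strand: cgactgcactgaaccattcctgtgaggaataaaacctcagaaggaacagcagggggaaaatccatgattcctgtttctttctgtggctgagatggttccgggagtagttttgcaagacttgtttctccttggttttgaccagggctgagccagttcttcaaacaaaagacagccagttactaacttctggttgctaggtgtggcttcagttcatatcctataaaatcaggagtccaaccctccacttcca
Anxa2, chr9:69453433-69453682, + strand: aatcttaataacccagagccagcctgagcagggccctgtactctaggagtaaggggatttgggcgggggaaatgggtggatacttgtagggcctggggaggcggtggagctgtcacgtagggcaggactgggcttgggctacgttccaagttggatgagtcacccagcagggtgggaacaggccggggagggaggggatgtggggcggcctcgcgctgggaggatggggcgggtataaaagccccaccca
Anxa5, chr3:36475888-36476137, - strand: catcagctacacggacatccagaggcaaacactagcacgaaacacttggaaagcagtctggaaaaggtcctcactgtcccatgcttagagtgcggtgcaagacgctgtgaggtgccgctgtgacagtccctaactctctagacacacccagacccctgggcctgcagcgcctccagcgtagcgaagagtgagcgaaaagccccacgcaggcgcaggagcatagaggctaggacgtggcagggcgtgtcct
Anxa11, chr14:25841905-25842126, + strand: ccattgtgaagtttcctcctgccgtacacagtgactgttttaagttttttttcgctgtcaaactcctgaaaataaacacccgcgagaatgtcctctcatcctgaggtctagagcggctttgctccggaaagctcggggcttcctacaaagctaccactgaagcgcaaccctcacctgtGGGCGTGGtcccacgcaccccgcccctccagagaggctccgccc
No annexin window held either of the first 2 motifs, which were present in 2.98% and 2.3% of the 32851 windows of all genes. The composite element was searched only in the order given, not with GAAA before GGAA. The KLF4 element was in 2 of the 8 annexin windows, against 15.9% of all windows. In Anxa11 it was GGGCGTGG on the sense strand, 44 to 37 bases before the annotated gene, or 72 to 65 before the table's start. In Anxa7 it was on the antisense strand, where the gene's own strand reads CCACGCCC. It lay 17 to 10 bases before a start that lies 192 bases inside the annotated gene. A match is only a run of letters, and the absence of one speaks only for these windows.

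Transcripts of 6 annexins were more abundant in IRF8-labelled cells than in control, by 2.59-fold for Anxa7 to 15.9-fold for Anxa1. Anxa3 was lower, by 2.22-fold, and Anxa11 did not pass the test. In this comparison 61.1% of all genes tested were called, 26.1% as higher and 34.9% as lower. The median log2 difference was 1.94 over the 8 annexins and -0.11 over all genes tested. For the 7 annexins past the threshold the IRF8-labelled and control arrays did not overlap, as was the case for 34.6% of genes with the IRF8-labelled arrays higher and 45.2% with them lower. The count of 7 was the same under all 19 alternative settings, among them scaling on the spike-in probes, which called 36% of all genes, 15.4% as higher and 20.5% as lower. RNA came from bulk cultures, where fewer cells of a type and less RNA per cell cannot be told apart.

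KLF4-labelled cells had higher signals than control for Anxa1, Anxa4, Anxa5 and Anxa2, by 9.57-fold, 2.24-fold, 1.72-fold and 1.64-fold. None of the 8 passed the threshold as lower. Over all genes, 16.1% were called, 10.4% as higher and 5.68% as lower, and the median log2 difference was 0.60 over the annexins and -0.12 over all genes tested. The arrays of both groups did not overlap for 6 annexins that were higher and for Anxa3, which was lower, against 21.3% and 39.6% of genes. With the replicate number as a block, 7 annexins passed, 6 higher and Anxa3 lower, while that fit called 47.4% of all genes, 17.8% as higher and 29.6% as lower. Fewer annexins than in the main fit passed when any 1 of the 6 arrays was left out, as with the calls over all genes. The log2 difference of Anxa1 ranged from 3.19 to 3.35 over the 19 alternatives. Scaling on the spike-in probes left only Anxa1, as higher, with 6.74% of all genes called, 6.14% as higher.

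Set directly against KLF4-labelled cells, IRF8-labelled cells had higher signals for Anxa1, Anxa2, Anxa4, Anxa5, Anxa6 and Anxa7 and a lower signal for Anxa3. This comparison called 50.3% of all genes, 22.7% as higher and 27.6% as lower. The median log2 difference was 0.94 over the annexins and -0.03 over all genes tested. The arrays did not overlap for these 7 genes, against 34.9% of genes with IRF8-labelled arrays higher and 40.3% with them lower. Scaling on the spike-in probes moved the median of all genes to -0.16, and then only Anxa5 and Anxa6 passed, both as higher, with 22.2% of all genes called, 8.99% as higher. Both comparisons with control use the same control arrays, so their values are set side by side below without a test of how alike they are.

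**Figure D1:**
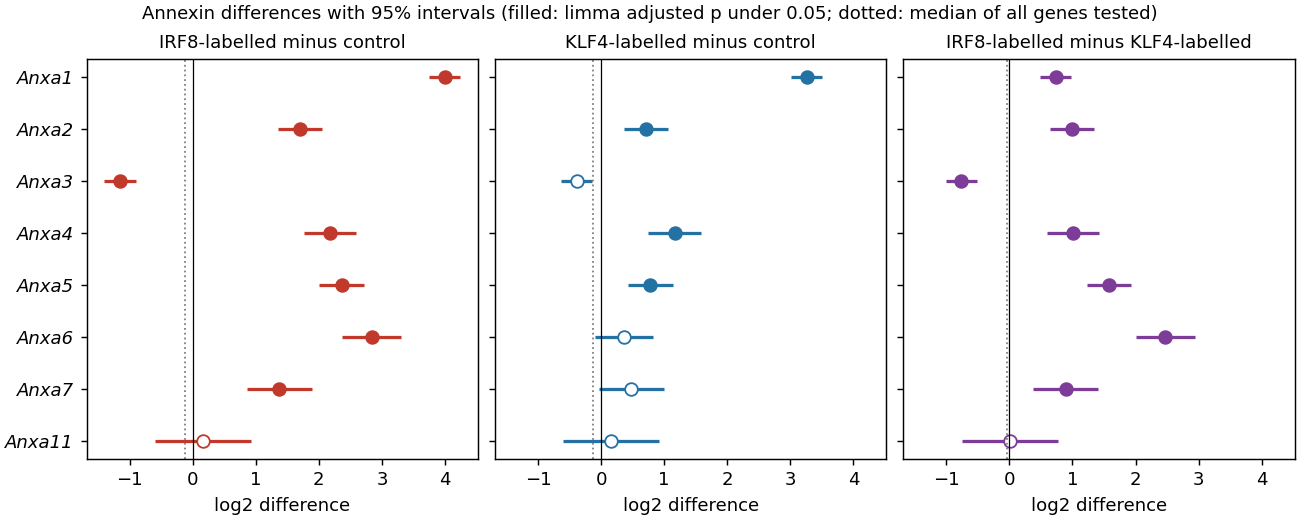
Log2 difference of each annexin (point) with its 95% interval (bar) in the 3 comparisons; filled points passed the limma threshold, open points did not, and the dotted line is the median of all genes tested. Anxa1 lies at 3.99 and 3.26 against control, Anxa3 lies left of 0 in every panel, and the intervals of Anxa11 cross 0.

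Marker genes of myeloid cell types moved as well. Summed over 10 monocyte and macrophage markers, the signal relative to the 75th percentile was 30.3 and 37.3 in control, 112 and 116 in KLF4-labelled cells and 341 on both IRF8-labelled arrays. The sum over 10 neutrophil markers was 915 and 1085 in control, 541 and 701 in KLF4-labelled cells and 45.4 and 47.2 in IRF8-labelled cells. Progenitor markers summed to 1991 and 2678, 1483 and 2248, and 729 and 904 in the same order. Of the 8 progenitor markers tested, 5 were lower than control in IRF8-labelled cells, beside 34.9% of all genes. Mpo and Flt3 did not pass. Cd34 was at least 4.42-fold higher and entered the fit through the IRF8-labelled arrays alone. The part of these marker differences in the annexin differences was not tested. Of 10 fibroblast and packaging cell markers, 2 to 4 were above background on any array, with sums of 0.256 to 0.364 in control and IRF8-labelled cells and 2.65 and 2.83 in KLF4-labelled cells. Most of the latter was Thy1, at 1.24 and 1.40 on the log2 scale, and the other markers tested there, Col1a1 and Col1a2, did not pass.

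Anxa1 encodes annexin A1, a protein that glucocorticoids induce and that dampens leukocyte recruitment through formyl peptide receptors. It had the largest difference from control of the 8 genes in both labelled groups. Its brighter probe, A_55_P2092826, read 2.84 and 2.98 in control, 6.16 and 6.18 in KLF4-labelled cells and 6.86 and 6.96 in IRF8-labelled cells. The groups were fully separated, in the order control, KLF4-labelled, IRF8-labelled, with far wider steps from control than between the labelled groups. The log2 difference of IRF8-labelled cells from control was 3.99 (SE 0.095, n = 2 per group, limma adjusted p = 1.60e-05). For KLF4-labelled cells it was 3.26 (SE 0.095, limma adjusted p = 7.62e-05). IRF8-labelled exceeded KLF4-labelled cells by 0.74 on the log2 scale, or 1.67-fold (limma adjusted p = 0.00296), and this step missed the threshold with spike-in scaling (0.61, limma adjusted p = 0.212). The second probe, A_66_P120567, gave log2 differences of 4.08, 3.26 and 0.82 in the same order of comparisons, close to those of the first.

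**Figure D2:**
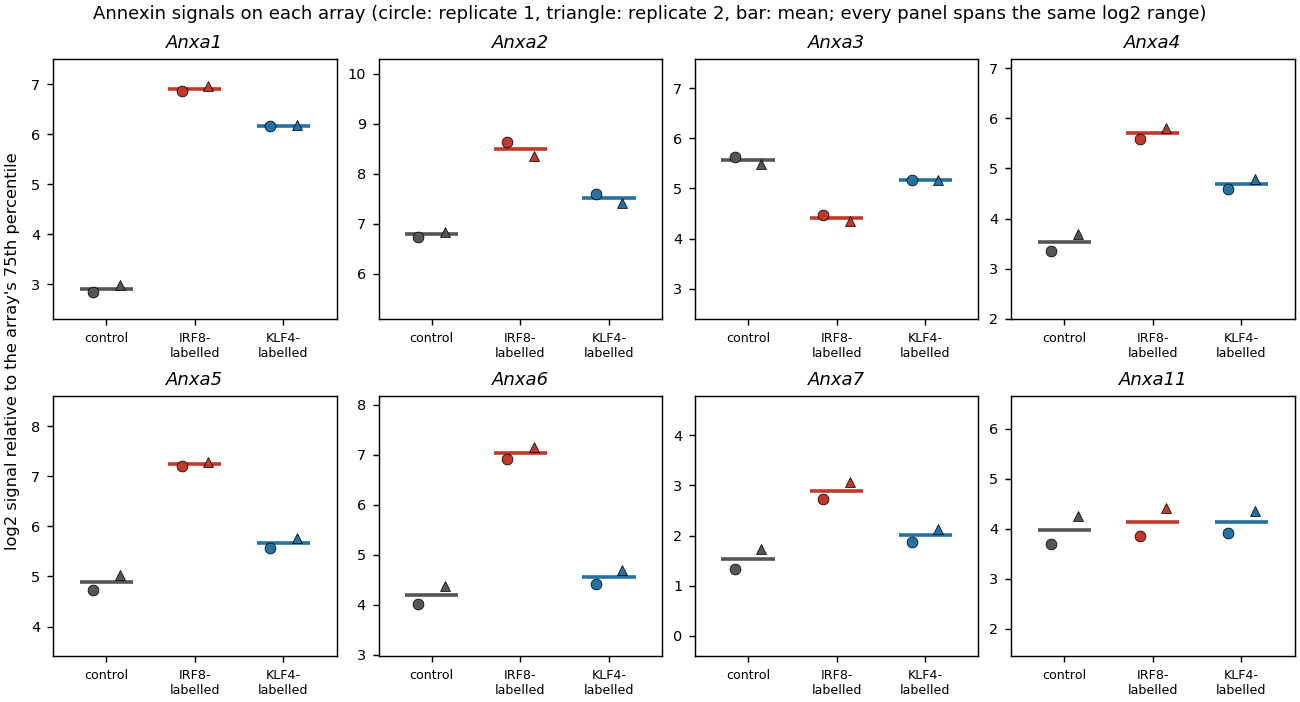
Log2 signal of the 8 annexins on each of the 6 arrays (circles replicate 1, triangles replicate 2, bars the group mean), relative to the 75th percentile of the array, with every panel spanning the same number of log2 units. Anxa1 steps from about 2.84 and 2.98 in control to above 6 in both labelled groups, Anxa6 is set apart on the IRF8-labelled arrays at 6.92 and 7.15, and the points of Anxa11 overlap.

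The genes of the receptors that annexin A1 acts on put the groups in another order. Fpr1, a receptor for bacterial formylated peptides, read -4.16 and -3.98 in control, -0.01 and -0.22 in KLF4-labelled cells and -5.23 and -5.26 in IRF8-labelled cells. Only 1 control array and no IRF8-labelled array was well above background for it. Fpr1 was thus 15.5-fold higher in KLF4-labelled cells than in control (log2 difference 3.95, SE 0.12, limma adjusted p = 7.81e-05). IRF8-labelled cells lay at least 26.7-fold below KLF4-labelled cells in the main processing. The smallest log2 difference between the labelled groups among 17 alternatives was -2.68, short of that bound. The difference between IRF8-labelled cells and control is not read here, since only 1 of these 4 arrays was above background.

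Fpr2, the receptor through which annexin A1 is best known to act, was not well above background on either control array. It was at least 12.5-fold higher in KLF4-labelled cells in the main processing (limma adjusted p = 0.000569), where it read -0.996 and -0.82. The smallest log2 difference from control among 17 alternatives was 2.23, short of that bound. In IRF8-labelled cells it read -5.23 and -4.51, with 1 of 2 arrays above background, so its difference from control is not read there. IRF8-labelled cells were lower than KLF4-labelled cells by 3.96 on the log2 scale (limma adjusted p = 0.000743). Fpr3 read between -4.49 and -3.89 on all arrays and did not pass in any comparison. Fpr-rs3 was above background in IRF8-labelled cells only, at least 1.30-fold over control in the main processing, and it entered the fit through that group alone. Its smallest log2 difference from control there among 17 alternatives was 0.32, short of that bound. With the replicate block it did not pass (limma adjusted p = 0.0519). Fpr-rs4 and Fpr-rs6 were not tested, being above background on both arrays of no group, and Fpr-rs7 was not matched to a probe.

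Pla2g4a encodes cytosolic phospholipase A2, the arachidonate-releasing enzyme that annexin A1 is known to inhibit. Its log2 signal was 2.62 and 3.04 in control, 2.72 and 2.93 in KLF4-labelled cells and 1.02 and 1.46 in IRF8-labelled cells. IRF8-labelled cells were lower than control by 3.0-fold (log2 difference -1.59, SE 0.22, limma adjusted p = 0.00247), and KLF4-labelled cells overlapped with control (-0.01, limma adjusted p = 0.987). The calcium sensor gene S100a11, whose product binds the annexin A1 tail, read 5.01 and 5.09 in control, 5.30 and 5.50 in KLF4-labelled cells and 6.92 and 7.19 in IRF8-labelled cells. It rose 4.01-fold in IRF8-labelled cells (log2 difference 2.00, SE 0.13, limma adjusted p = 0.000238). For KLF4-labelled cells the log2 difference was 0.35 (limma adjusted p = 0.144, and 0.0243 with the replicate block).

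Anxa2 encodes annexin A2, which forms a complex with S100A10 on the inner and outer face of the plasma membrane and binds plasminogen. Its log2 signal was 6.74 and 6.84 in control, 7.42 and 7.60 in KLF4-labelled cells and 8.35 and 8.64 in IRF8-labelled cells. The groups did not overlap and followed the order of Anxa1, with steps of more even size. The rise over control was 3.26-fold in IRF8-labelled cells (log2 difference 1.71, SE 0.14, limma adjusted p = 0.000400) and 1.64-fold in KLF4-labelled cells (0.72, limma adjusted p = 0.0292). The latter missed the threshold without control replicate 1 (0.116), control replicate 2 (0.0832), KLF4 replicate 1 (0.144) or KLF4 replicate 2 (0.0974), and it stayed past it in 13 of 19 alternatives. IRF8-labelled exceeded KLF4-labelled cells by 0.99 on the log2 scale (limma adjusted p = 0.00363, and 0.0568 with spike-in scaling).

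S100a10 encodes the S100 subunit of that complex. It read 2.47 and 2.74 in control, 4.02 and 4.34 in KLF4-labelled cells and 5.88 and 6.21 in IRF8-labelled cells, again without overlap. The rise was 10.9-fold in IRF8-labelled cells (log2 difference 3.45, SE 0.19, limma adjusted p = 0.000131) and 2.99-fold in KLF4-labelled cells (1.58, limma adjusted p = 0.00620). Ahnak encodes a giant scaffold protein that the annexin A2 complex binds at the membrane. It was not well above background on either control array and read 4.22 and 4.36 in KLF4-labelled and 6.33 and 6.45 in IRF8-labelled cells, which is at least 460-fold and at least 1971-fold over control. Fold values of this kind set the bright group against the lowest signal that was well above background on the dim arrays. They hold only for the main processing and for the brightest probe, 1 of 4 for Ahnak. Among 17 alternatives the smallest log2 differences of Ahnak from control were 9.21 in IRF8-labelled and 7.09 in KLF4-labelled cells. Both are short of these bounds.

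The calcium sensors S100a6 and S100a4, whose products bind annexin A2 and other annexins, were raised in both labelled groups. S100a6 read 2.69 and 2.76 in control, 6.98 and 7.19 in KLF4-labelled cells and 7.92 and 8.35 in IRF8-labelled cells. S100a4 moved furthest of the partner genes that were measured in all groups, from -1.35 and -1.22 in control to 6.81 and 6.85 in KLF4-labelled cells and 7.17 and 7.24 in IRF8-labelled cells. Its log2 differences from control were 8.49 and 8.11 (SE 0.09, limma adjusted p = 5.79e-06 and 1.08e-05). The step of 0.38 between the labelled groups (limma adjusted p = 0.0231) missed the threshold without IRF8 replicate 1 (0.122), IRF8 replicate 2 (0.0730), KLF4 replicate 1 (0.0820) or KLF4 replicate 2 (0.110), and under 3 other settings.

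**Figure D3:**
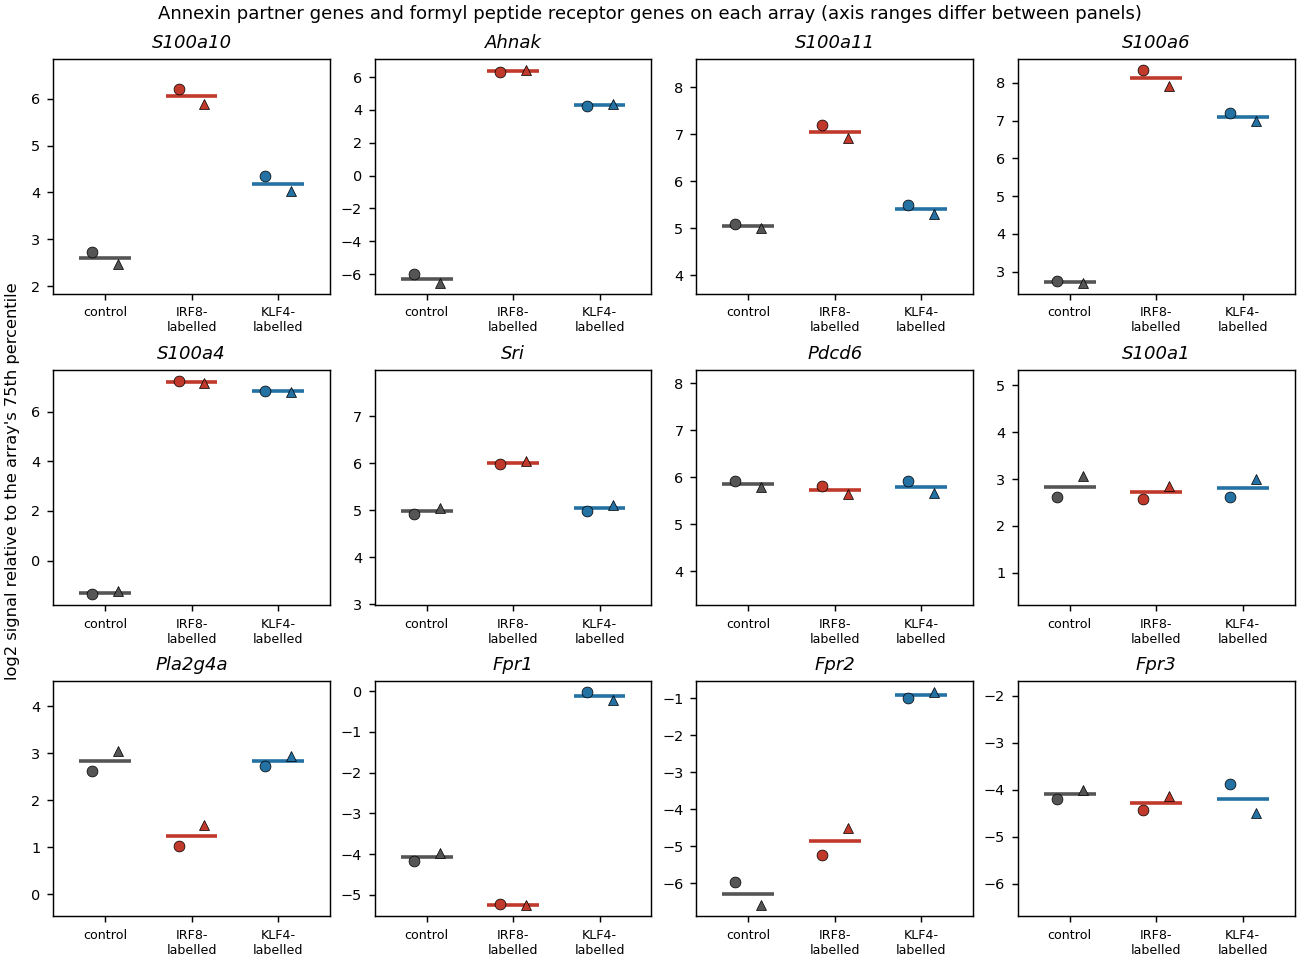
Log2 signal, relative to the 75th percentile of the array, of 9 annexin partner genes and 3 formyl peptide receptor genes on each array (circles replicate 1, triangles replicate 2, bars the group mean); axis ranges differ between panels. S100a10 and S100a6 rise from control through KLF4-labelled to IRF8-labelled cells, Fpr1 and Fpr2 are highest on the KLF4-labelled arrays, and Pdcd6 and S100a1 overlap between groups.

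Across the 9 partner genes, 6 were higher and 1, Pla2g4a, lower in IRF8-labelled cells than in control, beside the 26.1% and 34.9% of all genes given above. In KLF4-labelled cells 4 were higher, S100a10, S100a6, S100a4 and Ahnak, and none was lower, beside 10.4% and 5.68%. The median log2 difference over the 9 was 2.00 and 0.35, against the -0.11 and -0.12 of all genes tested. Between the labelled groups 6 were higher and 1 was lower in IRF8-labelled cells, beside 22.7% and 27.6%.

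Annexins 3 and 4 differ in where they are best known, in neutrophil granules and in epithelia. Anxa3 was the member with lower signal in the labelled groups, at 5.50 and 5.63 in control, 5.17 and 5.18 in KLF4-labelled cells and 4.35 and 4.48 in IRF8-labelled cells. The 6 arrays fell into 3 groups without overlap, in the reverse order of Anxa1. IRF8-labelled cells were 2.22-fold lower than control (log2 difference -1.15, SE 0.10, 95% interval -1.40 to -0.90, limma adjusted p = 0.000475), with -1.15 within both replicates. They were 1.70-fold lower than KLF4-labelled cells (log2 difference -0.76, limma adjusted p = 0.00281, and 0.0530 with spike-in scaling). For KLF4-labelled cells against control the log2 difference was -0.39 (95% interval -0.64 to -0.14, limma adjusted p = 0.0582). That value passed with the replicate block (0.0167) and in 4 of 19 alternatives in all. The neutrophil marker sum given above was also lower in IRF8-labelled cells. All 9 neutrophil markers tested fell there, beside 34.9% of all genes. Among these markers were Ltf, Camp and Cd177, which encode granule and surface proteins. Their part in the Anxa3 difference was not tested.

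Anxa4, whose product binds membranes of epithelial and secretory cells, read 3.36 and 3.70 in control, 4.60 and 4.79 in KLF4-labelled cells and 5.59 and 5.82 in IRF8-labelled cells. The 3 groups stood about evenly apart. The rise over control was 4.52-fold in IRF8-labelled cells (log2 difference 2.18, SE 0.16, limma adjusted p = 0.000330) and 2.24-fold in KLF4-labelled cells (1.17, SE 0.16, limma adjusted p = 0.0112). The second of these missed the threshold without KLF4 replicate 1 (0.0513) or KLF4 replicate 2 (0.0775). The labelled groups differed by 1.01 on the log2 scale (limma adjusted p = 0.00596, and 0.0919 with spike-in scaling).

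Anxa5 encodes annexin A5, which coats membranes that expose phosphatidylserine and is the reagent used to stain dying cells. Its log2 signal was 4.74 and 5.03 in control, 5.56 and 5.76 in KLF4-labelled cells and 7.20 and 7.29 in IRF8-labelled cells. The KLF4-labelled arrays lay nearer to control than to the IRF8-labelled arrays, unlike those of Anxa1. The rise over control was 5.13-fold in IRF8-labelled cells (log2 difference 2.36, SE 0.14, limma adjusted p = 0.000164) and 1.72-fold in KLF4-labelled cells (0.78, SE 0.14, limma adjusted p = 0.0238). The second missed the threshold without control replicate 1 (0.0835), KLF4 replicate 1 (0.0750), KLF4 replicate 2 (0.130) or either IRF8 replicate (0.0548). IRF8-labelled exceeded KLF4-labelled cells 2.99-fold (log2 difference 1.58, limma adjusted p = 0.000954), a call held in all 19 alternatives.

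Other genes that expose or read phosphatidylserine were taken from a list of 21, of which 19 were tested. In IRF8-labelled cells 11 of them were higher and 3 lower than control, beside 26.1% and 34.9% of all genes, with a median log2 difference of 0.63. In KLF4-labelled cells 4 were higher and none lower, beside 10.4% and 5.68%, with a median of 0.23. The replicate block made this 9 higher and 1 lower, beside 17.8% and 29.6%. Mfge8, a bridge between phosphatidylserine and integrins, read 1.01 and 1.04 in control, 4.78 and 4.85 in KLF4-labelled cells and 8.78 and 9.44 in IRF8-labelled cells. Gas6, the bridging ligand of the TAM receptor kinases, was measured on 1 of 2 control arrays. It was higher by 7.26 in IRF8-labelled and by 2.56 in KLF4-labelled cells on the log2 scale (limma adjusted p = 4.85e-05 and 0.00432). The TAM receptor gene Axl was above background in IRF8-labelled cells alone, at least 49.6-fold over control. The same held for Stab2, a scavenger receptor gene, at least 5.78-fold over control. Axl and Stab2 entered the fit through that group alone and are among the 11 higher genes. With only genes above background on all 6 arrays, 8 of 14 were higher and 3 lower. In that setting 7368 of the 11662 genes tested were called, and 38.7% of those called were higher.

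The phosphatidylserine-binding receptors Cd300lb and Cd300lf were higher than control by 8.05-fold and 7.57-fold in IRF8-labelled cells and by 5.30-fold and 5.20-fold in KLF4-labelled cells. The 3 genes that fell in IRF8-labelled cells were Stab1, a related receptor for phosphatidylserine, the scramblase gene Xkr8 and the TAM receptor gene Tyro3, by 2.30-fold, 2.04-fold and 1.76-fold. IRF8-labelled against KLF4-labelled cells, 11 genes of the list were higher and 4 lower, beside 22.7% and 27.6% of all genes. The higher ones include Axl and Stab2, which entered the fit through the IRF8-labelled arrays alone. The lower ones include the TAM receptor gene Mertk, which entered through the KLF4-labelled arrays alone. With spike-in scaling 5 were higher and 3 lower, beside 8.99% and 13.2% of all genes. With median scaling 6 were higher and 4 lower. That setting called 5930 of the 13244 genes tested, and 35.1% of those called were higher. The higher ones also became fewer when any 1 array was left out, as did the calls over all genes.

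Anxa6 encodes the largest annexin, with a duplicated core, which is tied to endocytic traffic and cholesterol handling. Its log2 signal was 4.01 and 4.38 in control, 4.42 and 4.69 in KLF4-labelled cells and 6.92 and 7.15 in IRF8-labelled cells. The IRF8-labelled arrays stood well apart, while the highest control array and the lowest KLF4-labelled array nearly met. The rise in IRF8-labelled cells was 7.15-fold over control (log2 difference 2.84, SE 0.18, limma adjusted p = 0.000207) and 5.56-fold over KLF4-labelled cells (2.47, SE 0.18, limma adjusted p = 0.000600). KLF4-labelled cells differed from control by 0.36 on the log2 scale (95% interval -0.10 to 0.83, limma adjusted p = 0.229). With the replicate block the adjusted p of that difference was 0.0173. It was 0.42 within replicate 1 and 0.31 within replicate 2. S100a1, a calcium sensor of muscle that binds annexin A6, overlapped between all groups, at 2.58 to 3.06.

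Anxa7 encodes a protein that binds and fuses granule membranes and pairs with the calcium sensor sorcin. Its brighter probe, A_55_P1962039, read 1.33 and 1.73 in control, 1.87 and 2.14 in KLF4-labelled cells and 2.73 and 3.06 in IRF8-labelled cells. IRF8-labelled cells were 2.59-fold above control (log2 difference 1.37, SE 0.20, limma adjusted p = 0.00296). They were 1.86-fold above KLF4-labelled cells (0.89, limma adjusted p = 0.0172), which missed the threshold without IRF8 replicate 2 (0.0730), without KLF4 replicate 1 (0.0828) and with spike-in scaling (0.162). KLF4-labelled cells differed from control by 0.48 (95% interval -0.03 to 0.99, limma adjusted p = 0.167, and 0.0103 with the replicate block).

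The dimmer Anxa7 probe, A_51_P402458, had closer replicates, at -0.69 and -0.60 in control, 0.29 and 0.35 in KLF4-labelled cells and 1.25 and 1.34 in IRF8-labelled cells. Its log2 differences were 1.94, 0.96 and 0.98 for IRF8-labelled against control, KLF4-labelled against control and IRF8-labelled against KLF4-labelled cells. In a fit of every probe by itself, its KLF4-labelled value passed (limma adjusted p = 0.00649), so the KLF4 call for Anxa7 turned on the probe. Sri, the gene of sorcin, read 4.93 and 5.04 in control, 4.98 and 5.12 in KLF4-labelled cells and 5.98 and 6.04 in IRF8-labelled cells. It was 2.04-fold above control in IRF8-labelled cells (log2 difference 1.03, SE 0.10, limma adjusted p = 0.000664), and its KLF4-labelled arrays overlapped with control.

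**Figure D4:**
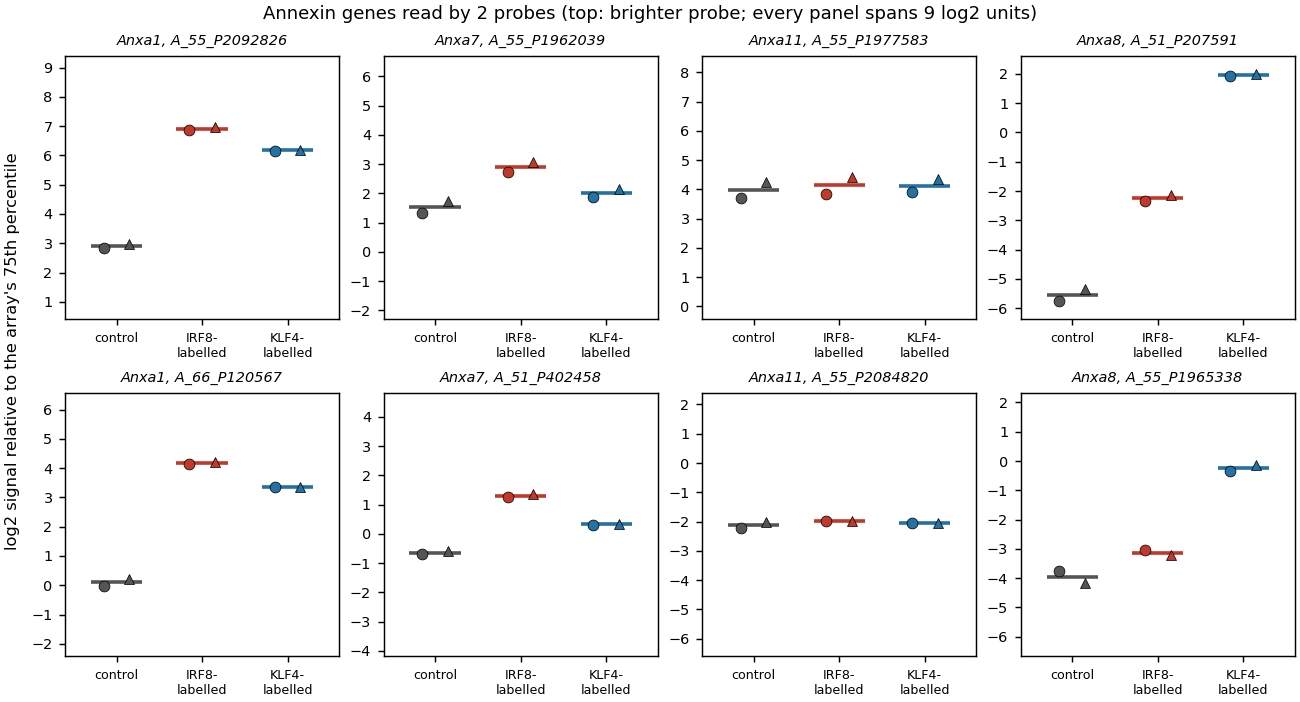
Log2 signal of the 3 member annexins with 2 probes, and of Anxa8, on each array (circles replicate 1, triangles replicate 2, bars the group mean), the brighter probe above and the dimmer below, with every panel spanning the same number of log2 units. Both Anxa1 probes show the same steps, the dimmer Anxa7 probe gives a larger KLF4-labelled step (0.96) than the brighter (0.48), and neither Anxa11 probe separates the groups by more than 0.16.

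Anxa11 encodes a protein with a long N-terminal tail that binds the calcium sensor PDCD6 and tethers RNA granules to lysosomes. Its brighter probe, A_55_P1977583, read 3.70 and 4.25 in control, 3.91 and 4.35 in KLF4-labelled cells and 3.85 and 4.42 in IRF8-labelled cells. All 3 groups overlapped, and replicate 2 was the higher array in each. The log2 difference was 0.16 for IRF8-labelled cells against control (SE 0.30, 95% interval -0.60 to 0.92, limma adjusted p = 0.674) and 0.15 for KLF4-labelled cells (95% interval -0.61 to 0.91, limma adjusted p = 0.745). Within replicates 1 and 2, IRF8-labelled minus control was 0.15 and 0.16, and KLF4-labelled minus control was 0.20 and 0.10. The intervals come from the fit without pairing, so their width includes the offset between replicates 1 and 2. They reach up to 0.92 on the log2 scale, and intervals with the arrays paired are not given here. The dimmer probe, A_55_P2084820, gave differences of 0.12 and 0.06 and passed in neither comparison. Pdcd6 read between 5.64 and 5.92 on all arrays, with overlap between all groups.

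The remaining annexin genes on the array, Anxa8, Anxa9, Anxa10 and Anxa13, have roles that are less well known in myeloid cells. Anxa8 ordered the groups in another way, since KLF4-labelled cells had the highest signal. Its brighter probe read -5.76 and -5.35 in control, not well above background, -2.33 and -2.14 in IRF8-labelled cells and 1.94 and 1.99 in KLF4-labelled cells. On this probe KLF4-labelled cells were at least 91.7-fold and IRF8-labelled cells at least 4.98-fold over control. KLF4-labelled cells exceeded IRF8-labelled cells 18.4-fold on it (log2 difference -4.20, SE 0.16, limma adjusted p = 0.000143). The dimmer Anxa8 probe, measured on all arrays, gave smaller log2 differences of 3.73 and 0.82 from control for KLF4-labelled and IRF8-labelled cells. Both are short of the bounds from the brighter probe, so those bounds do not hold for the gene as a whole.

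Anxa9 was 1.96-fold lower than control in IRF8-labelled cells and 1.62-fold lower in KLF4-labelled cells (limma adjusted p = 0.00290 and 0.0340). Anxa13 was higher by 2.71-fold and 1.66-fold (limma adjusted p = 0.000794 and 0.0305), with 1 of 2 control arrays above background. Fewer of Anxa8, Anxa9 and Anxa13 passed in KLF4-labelled cells when any 1 of the 6 arrays was left out, as with the calls over all genes. Anxa10 was above background on no array and was not tested.

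The genes outside the family whose log2 signals, centred on the control mean, lay nearest to those of Anxa1 over the 6 arrays were Clec4d, Xaf1, Cd84, Cdc42ep2 and Gstt1, at Euclidean distances of 0.516 to 0.598. Clec4d, a C-type lectin receptor of monocytes and neutrophils, differed from control by 3.80 in IRF8-labelled and 2.98 in KLF4-labelled cells, beside 3.99 and 3.26 for Anxa1. Nearest to Anxa3 were Ttc9c, Tfam, AW209491, Cenpq and Kdm8, at distances of 0.0819 to 0.113. Tfam, a packaging and transcription factor of mitochondrial DNA, differed from control by -1.17 and -0.33, beside -1.15 and -0.39 for Anxa3.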

How the data were processed

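Cy3-labelled RNA of the 6 Tot2 cultures was read on Agilent mouse arrays, 2 per group. Per the file headers, the authors deposited spot intensity, which the Feature Extraction software (10.7.3.1) had background-subtracted within each array. The authors' deposited value table holds each array's intensity times 1 factor (0.642 to 1.39), within 1% for at least 99.6% of probes, and was an alternative. Spots of a probe were averaged, and log2 of the intensity minus the array's 75th percentile over non-control probes was the measure. RefSeq accessions were matched to 20259 genes; for a gene with several probes, the brightest over all arrays was used. Probe sequences were not used here.

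The 13244 genes that exceeded background clearly on every array of 1 or more groups entered 1 limma fit (3.58.1, R 4.3.3). It had 3 groups and 3 residual degrees of freedom, and its p-values were two-sided and adjusted over all of these genes. The procedure was tested on simulated data with few changed genes and unpaired arrays. That setting differs from these data, so it does not measure the error rate here. Deviations of same-numbered arrays from their group means correlated at 0.282, 0.321 and 0.391 across genes. The number marks the experiment and the slide, so it pairs the samples. The main fit left this pairing out, as did every SE, interval and adjusted p not given as from the block. A fit with the number as a block was run as an alternative. Alternatives changed the scaling, background correction, filter, probe choice, variance model and arrays included. The members and lists were chosen with earlier results of these data known. Named were all annexins, Irf8, Klf4, all partner and receptor genes, from each other list up to 4 called members by size of change, and the 5 nearest patterns to Anxa1 and Anxa3; marker genes and falling genes given as examples were picked with values in view.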

Additional observations from a re-analysis of the deposited data

How the results depend on the processing

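Of 456 values of the 8 annexins under 19 alternative settings, 423 stayed on the same side of the threshold, and the sign turned in 8, all of them Anxa11 values that passed in no setting. The count in IRF8-labelled cells against control was 7 in all of them. In KLF4-labelled cells against control the 4 annexins became 1 with spike-in scaling and 2 with no filter on dim probes, and 1 to 3 when 1 array was left out. The replicate block, which pairs the arrays of an experiment, gave 7 there and changed no annexin count in the other comparisons. IRF8-labelled against KLF4-labelled, 7 annexins became 2 with spike-in scaling and 6 to 7 when 1 array was left out. With 1 array left out, the lone array of its group is assumed to vary like the others. Over all genes, 8088, 2128 and 6661 calls (IRF8-labelled against control, KLF4-labelled against control, and between them) became 4767, 893 and 2943 with spike-in scaling, and the KLF4-labelled count became 6284 with the block, 963 with no filter, 1394 with only the groups compared and 876 to 1394 with 1 array left out. Of the KLF4-labelled calls 64.7% were higher, against 87.8% with median scaling, 91.0% with spike-in scaling 53.9% with the percentile taken over spots and 37.6% with the replicate block; between the labelled groups 45.1% were higher, against 35.1% with median scaling. Causes were not tested. Normexp on mean signals could not be run, as the files used here hold median signals, which took its place; that choice and the percentile over spots were made after seeing the data. With 2 arrays per group, dim probes such as those of Fpr2 and the brighter Anxa8 probe have only bounds in control.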

Other observations

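Genes of plasminogen activation, the process that the annexin A2 complex is known to promote at the cell surface, were read from a list of 9, of which 7 were tested. In IRF8-labelled cells 5 were higher than control and 1 lower, beside 26.1% and 34.9% of all genes. The median log2 difference was 2.44, or 1.71 with dim genes at their bound. Of the higher genes, Serpinf2 entered the fit through the IRF8-labelled arrays alone. Plau, the gene of urokinase, read -1.61 and -1.58 in control, -1.30 and -1.27 in KLF4-labelled cells and 3.31 and 3.32 in IRF8-labelled cells. Its IRF8-labelled difference from control was 4.91 on the log2 scale (SE 0.08, limma adjusted p = 7.75e-06), and the KLF4-labelled difference of 0.31 did not pass (limma adjusted p = 0.0592). Plaur, the urokinase receptor gene, was higher in both labelled groups, by 8.85-fold and 4.30-fold. The plasminogen receptor gene Plgrkt was higher than control by 3.27-fold in IRF8-labelled cells and 1.58-fold in KLF4-labelled cells (limma adjusted p = 0.000406 and 0.0362). Serpine2, the gene of a protease inhibitor, fell by 3.05 and by 1.38 on the log2 scale in IRF8-labelled and KLF4-labelled cells. In KLF4-labelled cells 3 genes of the list were higher and 1 lower, beside 10.4% and 5.68% of all genes. The higher ones became fewer when any 1 of the 6 arrays was left out, as did the calls over all genes.

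Among membrane repair genes, 10 of 15 were tested, and 8 were higher and 1 lower in IRF8-labelled cells than in control, beside 26.1% and 34.9% of all genes, with a median log2 difference of 0.74. The 8 became fewer when 1 control or 1 IRF8-labelled array was left out, as did the calls over all genes. Capn2, a calpain subunit gene, read -0.68 and -0.35 in control, 4.06 and 4.38 in KLF4-labelled cells and 6.20 and 6.24 in IRF8-labelled cells. Tsg101, an ESCRT gene, was 2.39-fold higher in IRF8-labelled cells, and Cavin1, a caveolar coat gene, was 3.18-fold lower (limma adjusted p = 0.000229 and 9.26e-05). In KLF4-labelled cells 2 of the 10 were higher and none lower, beside 10.4% and 5.68% of all genes. That count became smaller when any 1 of the 6 arrays was left out, as did the calls over all genes. The replicate block made it 6 higher and 1 lower, beside 17.8% and 29.6%. Spike-in scaling left 3 higher and 1 lower in IRF8-labelled cells, beside 15.4% and 20.5%.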
